A study of Rattus norvegicus with 294 samples.

Results

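The data described here are the 15 osteocyte arrays of vehicle rats taken on days 8, 29 and 85, out of 294 arrays in the whole series. They were chosen by label alone: the vehicle arm, the captured cell type osteocyte and 1 of those 3 days, with 5 arrays a day. The series profiled bone cells of the third lumbar vertebra on Affymetrix rat arrays, in rats dosed with vehicle or with a sclerostin antibody. Every rat was a Sprague-Dawley female whose ovaries were removed at the age of 6 months, who was then left untreated for 8 weeks and afterwards injected under the skin once a week. The vehicle was a sucrose and acetate buffer with a little Tween 20, and the antibody arms received 3 or 50 mg/kg. Rats also received calcein green, a dye that marks bone-forming surfaces, before death. Frozen sections of the first 5 rats of each arm and day were used to laser-capture osteocytes, osteoblasts and lining cells, and the labels give 1.5 ng of RNA amplified before labelling. All arms had been ovariectomized and no array of a rat with ovaries is among those analysed here, so days 29 and 85 are set against day 8 of dosing and not against a rat with ovaries. Replicates are taken to be separate rats, as the study's design describes, although the array titles name no animal, so p-values measure the spread between arrays. For genes, that spread was pooled over all 97 osteocyte arrays, or over all 294 arrays for cell types. It is not the spread of these 15 arrays alone. Day of dosing, age and time since surgery advance together in these groups and cannot be told apart.

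Osteocytes are former bone-forming cells that have become buried in mineral. They stay linked by long processes, secrete regulators of mineral and of bone formation such as sclerostin, and can resorb the wall of their own lacuna with acid and proteases that osteoclasts also use. Loss of oestrogen speeds up bone turnover, with osteoclastic resorption and bone formation both raised in the period that follows. The comparisons of day 29 and of day 85 with day 8 ask how the RNA of captured osteocytes changed over that time without the antibody.

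The label was checked against marker genes, as log2 intensity above the median of all probe sets of the array. Mepe and Dmp1, matrix proteins made by osteocytes, lay 8.60 and 8.14 log2 units above it on average. Of 14 osteocyte marker genes on the array 11 lay above it. Some lists of other cells reached that share too, so the count alone does not mark the cell type. Sost, which encodes sclerostin, averaged 0.05 log2 units below the array median (-0.05), so the array gave little or no signal for the antibody's own target. Phex, a regulator of phosphate loss, averaged 0.29 log2 units above the median. Fgf23 did not pass the filter on low values. The captures also held RNA of neighbouring cells. Markers of osteoclasts (5 of 7 above the array median), erythroid cells (13 of 13), granulocytes (7 of 9) and macrophages (14 of 14) were present, led by Ctsk and Acp5, by the haemoglobin gene Hbb at 8.82 and by the neutrophil gene S100a9 at 8.17 log2 units above the median. Most markers of the B lineage (7 of 8), megakaryocytes (9 of 11), T and NK cells (11 of 14) and endothelial cells (10 of 13) lay above it too. For T and NK and endothelial cells the list medians were only 0.48 and 0.68 above it. Fewer cells of a type in a capture and less RNA per cell cannot be told apart in such bulk material.

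The arrays of the 3 days differed in their overall spread of signal. The signal range of an array is taken here as the distance, in log2 intensity over all probe sets, between the median and the 90th percentile. It was 3.249, 3.165, 3.262, 3.303 and 3.003 on day 8, 3.017, 3.056, 2.625, 2.862 and 3.075 on day 29, and 2.765, 2.597, 2.779, 2.661 and 2.575 on day 85. All 5 day 85 arrays lay below all 5 day 8 arrays, while day 29 overlapped both. Day 85 differed from day 8 by -0.521 (2.675 ± 0.094 against 3.196 ± 0.119, SD, n = 5 each, exact two-sided permutation p = 0.007937, the smallest possible with 5 against 5, adjusted p = 0.02381 over 3 pairs). Day 29 averaged 2.927 ± 0.188 and differed from day 8 by -0.269 (exact permutation p = 0.03175, adjusted p = 0.03968), and day 85 differed from day 29 by -0.252 (exact permutation p = 0.03968, adjusted p = 0.03968). Leaving out single arrays ended the call of day 29 against day 8 in 5 of 15 cases and that of day 85 against day 29 in 11 of 15, with adjusted p up to 0.0714, and none of the 15 ended that of day 85 against day 8. The 11 include day 8 replicates 1, 2, 3 and 4, which are not in that comparison. Without them its difference stayed at -0.252, and only the adjustment over 3 pairs moved. Day 29 replicate 3 had the lowest range of its day, and day 85 replicates 2 and 5 correlated least with the other arrays of their day (mean r across probe sets 0.934 and 0.931). Whether the RNA of the days differed in quality or in the batch of capture and hybridization was not tested, since the labels used here name neither.

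**Figure D1:**
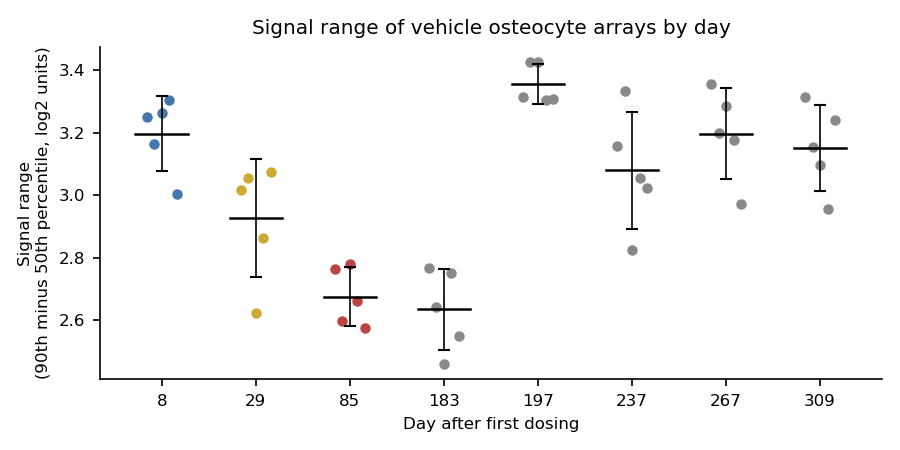
Signal range of each vehicle osteocyte array (log2 distance from the median to the 90th percentile) by day after the first dosing, with the 5 arrays of a day as points and their mean ± SD as black lines. The means are 3.196, 2.927 and 2.675 on days 8, 29 and 85, and the later days, shown in grey, run between 2.635 on day 183 and 3.355 on day 197.

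The values of many genes shifted together between the days. Of 11859 genes tested with limma, 40 (0.337%) were higher and 213 (1.8%) were lower on day 29 than on day 8 at an adjusted p under 0.05. On day 85, 1133 genes (9.55%) were higher and 3099 (26.1%) lower than on day 8, and between day 85 and day 29 the counts were 249 (2.1%) and 818 (6.9%). Of the same 11859 genes, 621 had no overlap between the arrays of days 29 and 8. For days 85 and 8 it was 1602 genes, and for days 85 and 29 it was 391. The median change of all genes tested was -0.07 on day 29 and -0.19 on day 85, and it depended on how strongly a gene was expressed. With the genes in 10 equal bins by mean level, the lowest bin had a median change of 0.15 log2 units between day 85 and day 8, and the top bins 9 and 10 had -0.48 and -0.44. Below, a gene list is set against the bin that holds its median level, called a like level, which need not match each member. After quantile normalization, which gives all arrays the same distribution, no bin had a median change outside -0.07 to 0.04.

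**Figure D2:**
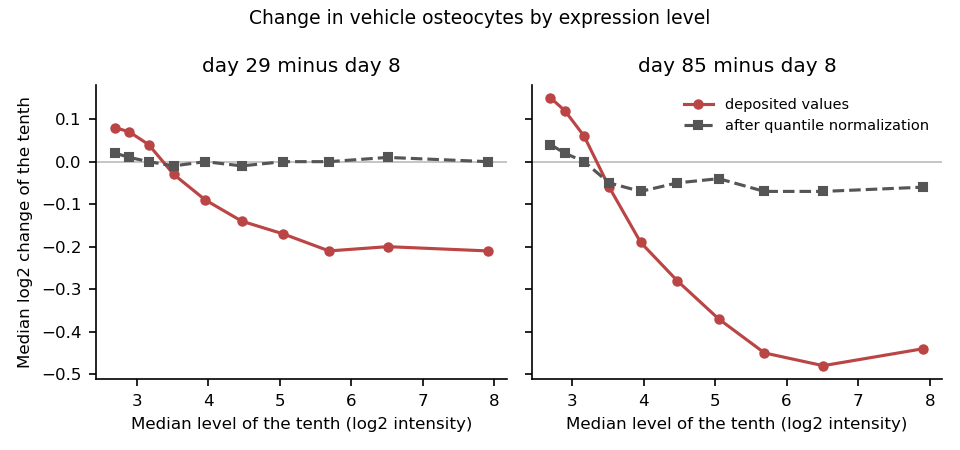
Median log2 change of the genes tested, in 10 bins ordered by mean level, for day 29 minus day 8 and day 85 minus day 8. With the deposited values (red circles) the change runs to -0.48 on day 85 among well expressed genes and to 0.15 among weakly expressed ones, and after quantile normalization (grey squares) it stays between -0.07 and 0.04.

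For that reason changes after quantile normalization are given beside many of the genes below. Genes of vehicle osteocytes named as past the test with no such value kept their direction and call after it. With quantile-normalized values, 25 genes were higher and 22 lower on day 29 than on day 8, and 1119 were higher and 1259 lower on day 85, so the share of higher genes among the calls was 53.2% against 15.8% with deposited values on day 29 and 47.1% against 26.8% on day 85, and 39.8% against 23.3% between days 85 and 29. Called in the same direction with both sets of values were 11 higher (0.0928%) and 22 lower genes (0.186%) on day 29, and 736 higher (6.21%) and 1187 lower genes (10%) on day 85. With the signal range of each array as a covariate in limma, 1 gene (0.00843%) was called on day 29 and 173 genes (1.46%) on day 85. The signal range itself differed with day, without overlap between days 85 and 8, so this covariate cannot separate day from range. A call lost or kept with it does not settle which of them a change followed. The day 29 counts were fragile in other ways too: 2 genes were called when only these 15 arrays were fitted, and 14 when day 29 replicate 3 was left out. Day 8 replicates 1, 2, 3 and 4 and day 29 replicates 1 and 4 also lowered the count when left out singly, to between 27 and 96, and leaving out day 8 replicate 5 raised it to 462. Without both day 85 arrays that correlated least with their group, 2556 genes were called on day 85, 673 higher and 1883 lower.

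Acp5, Ctsk and Gpnmb, genes of bone resorption and of the cells that carry it out, were lower on both later days. Acp5, the tartrate-resistant acid phosphatase of osteoclasts and of osteocytes that remodel their lacunae, read 12.03, 11.80, 12.02, 11.73 and 12.08 log2 intensity on day 8, 10.94, 10.71, 10.64, 10.92 and 11.11 on day 29, and 10.49, 10.89, 11.08, 10.36 and 10.40 on day 85. All 10 later arrays lay below all 5 day 8 arrays, and days 29 and 85 overlapped. The change was -1.06 ± 0.21 (SE) on day 29 (limma adjusted p = 0.00353) and -1.28 ± 0.21 on day 85 (3.64e-06), and it was -0.91 and -1.07 after quantile normalization (0.0144 and 3.2e-05). Gpnmb, a membrane glycoprotein abundant in osteoclasts and macrophages, read 7.51, 7.03, 7.96, 7.27 and 7.70 on day 8, 6.42, 6.41, 5.04, 6.85 and 5.92 on day 29, and 5.96, 5.27, 5.86, 5.27 and 5.21 on day 85. Here too no later array reached the day 8 arrays. Gpnmb fell by 1.37 on day 29 (SE 0.27, limma adjusted p = 0.00427, change after quantile normalization -1.19) and by 1.98 on day 85 (SE 0.27, 2.07e-07, and -1.63), and the day 85 fall kept its call with the signal range as a covariate (-1.15, 0.0183). Without day 29 replicate 3, the lowest array of its day, the day 29 change of Gpnmb was -1.09 and no longer passed (limma adjusted p = 0.103). Acp5 with that covariate was at -0.81 on day 29 and -0.78 on day 85 (limma adjusted p = 0.0899 and 0.0515).

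The promoters of 4 resorption and lysosomal genes that were lower on day 85 are shown because they fell together, with E-box letters (CATGTG or its complement CACATG, and CACGTG, searched on both strands) in capitals and all else in lower case. Each run is 300 bases in RefSeq's GRCr8, 5′ to 3′ on the gene's strand, from 250 bases before to 50 after an annotated start. The entries are Acp5 at chr8:28943880-28944179 (minus strand), Ctsk at chr2:185747298-185747597 (plus), Gpnmb at chr4:79340878-79341177 (plus) and Ctsd at chr1:206968772-206969071 (minus).
Acp5: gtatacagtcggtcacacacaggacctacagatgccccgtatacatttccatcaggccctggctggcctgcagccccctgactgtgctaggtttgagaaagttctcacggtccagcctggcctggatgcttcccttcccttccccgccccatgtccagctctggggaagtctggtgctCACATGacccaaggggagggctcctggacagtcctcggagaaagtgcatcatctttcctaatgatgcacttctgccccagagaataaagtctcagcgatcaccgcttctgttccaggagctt
Ctsk: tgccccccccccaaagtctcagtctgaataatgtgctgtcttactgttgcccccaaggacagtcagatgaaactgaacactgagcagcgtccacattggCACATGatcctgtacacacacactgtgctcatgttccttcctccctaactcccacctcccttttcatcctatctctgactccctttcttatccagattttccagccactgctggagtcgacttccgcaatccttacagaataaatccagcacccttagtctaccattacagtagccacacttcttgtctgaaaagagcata
Gpnmb: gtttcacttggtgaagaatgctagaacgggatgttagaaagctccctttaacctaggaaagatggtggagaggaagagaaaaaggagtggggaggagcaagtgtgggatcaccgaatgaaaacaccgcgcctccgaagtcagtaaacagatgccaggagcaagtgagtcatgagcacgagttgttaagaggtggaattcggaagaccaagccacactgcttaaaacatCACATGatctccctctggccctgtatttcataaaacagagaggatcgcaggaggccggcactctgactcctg
Ctsd: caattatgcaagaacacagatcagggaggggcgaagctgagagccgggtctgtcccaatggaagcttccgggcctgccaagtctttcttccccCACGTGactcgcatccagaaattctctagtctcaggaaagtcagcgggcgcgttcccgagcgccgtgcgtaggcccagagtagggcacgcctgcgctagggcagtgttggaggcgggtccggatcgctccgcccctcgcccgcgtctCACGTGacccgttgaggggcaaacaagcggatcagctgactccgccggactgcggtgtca
CATGTG or its complement stood once each in the Acp5, Ctsk and Gpnmb windows, with their first base at -72, -151 and -22 from the start, and in 14% of all 33469 promoter entries of that length. CACGTG stood at -157 and -10 from the start of Ctsd and in 6.42% of all entries. A second annotated Acp5 start at chr8:28945881-28946180 held neither. Only these 4 genes were looked up one by one, and not others lower on day 85 such as Csf1r, Timp1, Itgb3 and Mmp9. These matches describe letters and no binding was measured.

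Ctsk, the collagen-cutting cathepsin K, read 13.53, 13.34, 13.10, 13.40 and 13.31 on day 8, 12.77, 12.54, 12.69, 12.83 and 12.86 on day 29, and 12.82, 12.78, 12.69, 12.50 and 12.39 on day 85. Both later days lay wholly below day 8. The change was -0.60 ± 0.15 on day 29 (limma adjusted p = 0.0271), which did not pass after quantile normalization (-0.37, 0.228), and -0.70 ± 0.15 on day 85 (0.00023), which did (-0.48, 0.0181). The day 29 call of Ctsk also ended on leaving out day 8 replicate 1, 2 or 4 or day 29 replicate 3 (limma adjusted p 0.0534 to 0.12). Ctsd, the lysosomal cathepsin D, was lower by 0.94 on day 85 (SE 0.18, limma adjusted p = 7.91e-05, change after quantile normalization -0.67), with 4.12 to 4.49 on day 85 against 4.99 to 5.59 on day 8. Csf1r, the receptor through which macrophages and osteoclast precursors are kept alive, read 6.35 to 6.78 on day 85 against 7.35 to 7.82 on day 8 (-0.95 ± 0.17, 3.14e-05, and -0.57 after quantile normalization). Timp1, an inhibitor of metalloproteinases, read 6.20 to 6.71 on day 85 against 7.26 to 8.24 on day 8 (-1.12 ± 0.28, 0.00132, and -0.73 after quantile normalization). Of these, none overlapped between day 85 and day 8, which held for 1602 of all 11859 genes tested. With the signal range as a covariate, none of them was called on day 85.

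Of 7 osteoclast markers tested, 4 were lower on day 85 than on day 8 (Acp5, Ctsk, Itgb3 and Mmp9) and Tnfrsf11a, the receptor RANK, was higher. Their median change was -0.70, against -0.19 and 26.1% lower over all genes tested and -0.44 and 45.5% lower over the bin of genes with a like level. After quantile normalization 2 were lower and 1 was higher, with a median of -0.34. The mean log2 level of the list lay between 7.13 and 7.49 on the 5 day 85 arrays, against 7.72 to 7.89 on day 8. Itgb3, the osteoclast integrin subunit, was at -0.77 (limma adjusted p = 0.0036) and Mmp9, a gelatinase of osteoclasts and granulocytes, at -0.73 (0.00603), and neither passed after quantile normalization (-0.47, 0.122 and -0.34, 0.241). Without day 85 replicates 2 and 5, Mmp9 was at -0.45 (0.165). Of 14 macrophage markers, 4 were lower and 1 was higher on day 85, a share close to the 26.1% lower over all genes and below the 47.4% at a like level, and 1 was lower and 1 higher after quantile normalization. Their median was -0.47, against -0.48 at a like level, with a mean list level of 6.10 to 6.55 on day 85 against 6.18 to 7.08 on day 8. The perilacunar remodelling genes, a list that shares Acp5 and Ctsk with the osteoclast list, held 6 lower and 1 higher of 12 on day 85 (45.5% lower at a like level), of which Acp5, Ctsk and Timp1 were also lower after quantile normalization. On day 29, 2 of 7 osteoclast markers and 3 of 12 perilacunar genes were lower and none was higher, and of all these Acp5 alone was also lower after quantile normalization. With the signal range as a covariate, no gene of the osteoclast, macrophage or perilacunar lists was called on day 85. Whether the resorption genes were lower in osteocytes or through fewer osteoclasts and macrophages beside them was not tested.

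**Figure D3:**
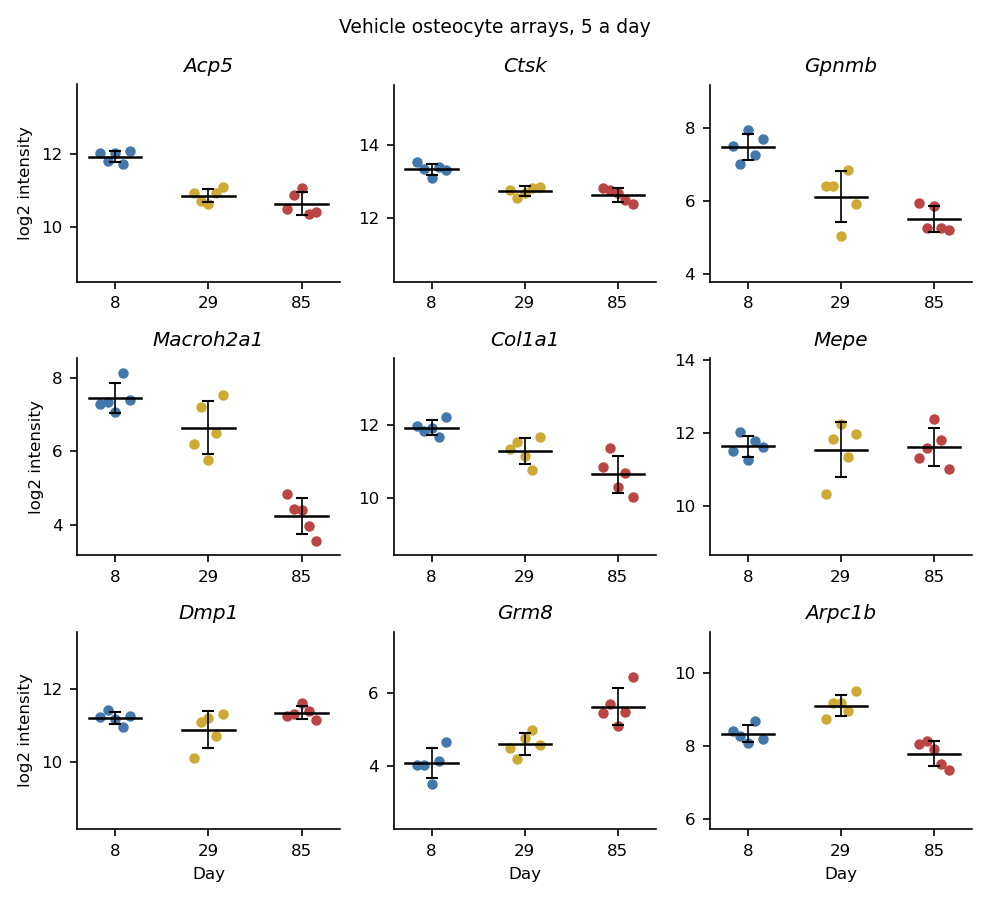
log2 intensity of 9 genes on the 5 vehicle osteocyte arrays of days 8, 29 and 85 (points), with mean ± SD in black and the same height of axis in every panel. Acp5, Ctsk and Gpnmb lie lower on both later days, Macroh2a1 and Col1a1 are lowest on day 85, Grm8 is highest on day 85, Arpc1b is highest on day 29, and Mepe and Dmp1 overlap on all days.

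The genes that define osteocytes showed little of this. Mepe read 11.33, 11.61, 12.39, 11.83 and 11.03 on day 85 against 11.51, 12.03, 11.26, 11.78 and 11.64 on day 8, and Dmp1 read 11.26, 11.31, 11.63, 11.41 and 11.16 on day 85 against 11.23, 11.43, 11.19, 10.97 and 11.27 on day 8. Both genes overlapped between days. Their changes on day 85 were -0.01 ± 0.43 and 0.14 ± 0.30 (limma adjusted p = 0.993 and 0.744), which do not show that levels were equal, and the sign for Mepe turned after quantile normalization (0.21). Sost read 2.78 to 3.27 on day 85 against 2.50 to 3.10 on day 8 (0.19 ± 0.14, limma adjusted p = 0.288). Of 13 osteocyte markers tested, none was called on day 29 with limma, and on day 85 Irx5, a homeobox factor, was higher (0.55 ± 0.16, 0.00577) while Pdpn and Slc13a5 were lower, with a list median of -0.10 against -0.19 over all genes. At a like level 3.46% of genes were higher and 36.2% lower. Irx5 lay 0.31 log2 units above the array median, against a list median of 1.87, so that bin does not match it. With the signal range as a covariate no gene of the list was called. After quantile normalization Irx5 alone of the list was called, and as the mean of its probe sets it was at 0.27 (limma adjusted p = 0.0442). Pdpn, the podoplanin of osteocyte processes, was at -1.04 ± 0.40 (limma adjusted p = 0.0346) with values from 3.20 to 5.88 on day 85 against 5.00 to 5.60 on day 8. That call was lost after quantile normalization (-0.82, 0.132) and without any 1 of day 8 replicates 1, 2 and 5 and day 85 replicates 2, 4 and 5 (limma adjusted p 0.0574 to 0.149).

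Several collagens and matrix glycoproteins were lower on day 85, in a list whose share of lower genes was no larger than that of genes with a like level. Col1a1, the main collagen chain of bone, read 10.86, 11.37, 10.32, 10.68 and 10.04 on day 85 against 11.99, 11.85, 11.93, 11.68 and 12.23 on day 8, with no overlap (-1.28 ± 0.35, limma adjusted p = 0.00285, and -1.06 after quantile normalization, 0.0203). Col5a2, a collagen V chain that sits in collagen I fibrils, was at -1.41 ± 0.32 on day 85 (0.000549) and -1.08 after quantile normalization, and at -1.14 ± 0.32 on day 29 (0.0436, 0.109 after quantile normalization). Col11a1 was at -1.62 ± 0.39 and Tnc, the matrix glycoprotein tenascin C, at -1.39 ± 0.30 (limma adjusted p = 0.00101 and 0.000359), both also lower after quantile normalization, and as the mean of its 3 probe sets Col11a1 was at -0.63 (0.00185). In all, 10 of 29 matrix genes tested were lower and 1 was higher, with a median of -0.36, against 26.1% lower over all genes and 43.2% lower, with a median of -0.45, over the bin of genes with a like level. After quantile normalization 4 were lower and 1 was higher, with a median of -0.06. With the signal range as a covariate no gene of the list was called, and its median was -0.12. Col1a2, Sparc and Spp1 passed with deposited values (-0.71, -1.10 and -0.95, limma adjusted p = 0.0386, 0.00531 and 0.0134) and not after quantile normalization (0.0922, 0.0533 and 0.129). Bglap, the gene of osteocalcin, was at -0.78 (0.0429) and -0.57 after quantile normalization (0.185). The calls of Col1a2 and Bglap also ended on leaving out single arrays, with limma adjusted p up to 0.135 and 0.118: for Col1a2, day 8 replicate 1, 2 or 5 or day 85 replicate 3 or 5, and for Bglap, day 8 replicate 3 or 5 or day 85 replicate 1, 3, 4 or 5. Tnn, the tenascin W of bone-forming regions, was the higher gene, at 2.91 to 4.07 on day 85 against 2.79 to 3.09 on day 8 (0.57 ± 0.16, 0.0047), near the array median and no longer called without day 85 replicates 2 and 5 (0.44, 0.0723).

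Enzymes and chaperones that fold and modify collagen had a share of lower genes near that of genes with a like level. Of 21 tested, 7 were lower and none higher on day 85 (median -0.44), where limma called 3.46% of the genes of a like level higher and 36.2% lower, and 2 were lower after quantile normalization. Fkbp14, a prolyl isomerase of collagen, read 3.09, 3.09, 4.04, 3.22 and 2.99 on day 85 against 5.33, 4.59, 4.58, 5.03 and 4.07 on day 8, and day 85 replicate 3 came close to the lowest day 8 array without reaching it (-1.44 ± 0.26, 2.69e-05, and -1.35 after quantile normalization). Serpinh1, the collagen chaperone HSP47, was at -0.82 ± 0.23 (limma adjusted p = 0.00415) and -0.70 after quantile normalization, but at -0.36 as the mean of its probe sets (0.0225). Among mineral and phosphate genes 4 of 14 were lower on day 85 and none was higher, against 26.1% lower over all genes and 43.2% at a like level, with a median of -0.43 against -0.45 at a like level, and 1 was lower after quantile normalization. Slc20a1, a phosphate transporter, was at -1.14 ± 0.25 (0.000335) and -0.76 after quantile normalization (0.0107). Pth1r, the parathyroid hormone receptor, was at -1.06 ± 0.28 and Enpp1, which makes the mineralization inhibitor pyrophosphate, at -0.91 ± 0.25 (limma adjusted p = 0.00236 and 0.00311), and neither passed after quantile normalization (0.0558 and 0.0579). As the mean of its probe sets Pth1r was at -0.42 and did not pass (limma adjusted p = 0.0725). With the signal range as a covariate, no collagen enzyme and no mineral or phosphate gene was called on day 85.

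Among well expressed groups of housekeeping genes, many respiratory chain and proteasome genes and few ribosomal protein genes were lower on day 85. Of 67 genes of the mitochondrial respiratory chain, 41 were lower and none higher, with a median of -0.52, against -0.44 and 45.5% lower over the bin of genes with a like level. After quantile normalization 15 were lower and 1 was higher, and with the signal range as a covariate 1 was lower. Cyc1, the cytochrome c1 of complex III, read 7.62, 7.23, 7.30, 6.86 and 6.81 on day 85 against 8.30, 8.31, 8.21, 8.50 and 8.01 on day 8 (-1.10 ± 0.17, limma adjusted p = 2.63e-06, and -0.72 after quantile normalization). Uqcr11, a small subunit of the same complex, was at -1.42 ± 0.24 (6.16e-06). Ndufs7, a complex I subunit, was at -1.29 ± 0.20 (1.62e-06), although day 85 replicate 2, at 6.86, lay among the day 8 arrays (6.73 to 7.32). After quantile normalization Uqcr11 was at -1.08 and Ndufs7 at -0.91. Of 41 cytosolic ribosomal protein genes, at a level where 45.5% of genes were lower, 8 were lower and 1 was higher (median -0.10), and after quantile normalization 3 were lower and 8 higher.

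Proteasome subunits were lower in 19 of 35 and higher in none (median -0.46), close to the -0.48 and 47.4% lower at a like level. After quantile normalization 7 were lower and 2 higher (median -0.13), and with the signal range as a covariate none was called by limma, with a median of 0.05. Psmb4, a subunit of the proteolytic core, was at -1.26 ± 0.22 and Psmd1, a subunit of the regulatory cap, at -1.42 ± 0.27 (limma adjusted p = 2.05e-05 and 6.72e-05), and they were at -0.88 and -1.04 after quantile normalization. Genes of the secretory pathway and unfolded protein response were lower in 14 and higher in 2 of 31, with a median of -0.49, again close to genes of a like level (-0.48, 47.4% lower). After quantile normalization 6 were lower and 3 higher. Sec61a1, the pore through which new proteins enter the endoplasmic reticulum, read 5.75, 5.28, 5.53, 4.93 and 5.25 on day 85 against 6.44, 6.38, 6.49, 7.29 and 6.87 on day 8 (-1.35 ± 0.23, 1.21e-05), and it kept its call with the signal range as a covariate (-0.96, limma adjusted p = 0.0435), while after quantile normalization it was at -0.98 and as the mean of its probe sets at -0.51 (0.001). Kdelr2, which returns chaperones to the endoplasmic reticulum, was at -1.39 ± 0.23 (5.99e-06) and -1.03 after quantile normalization. Of 38 cell cycle genes 14 were lower and none higher on day 85 (median -0.37), fewer than the 43.2% lower at a like level (median -0.45), and 5 were lower after quantile normalization. Cenpf, a kinetochore protein, was at -1.08 ± 0.24 (0.000505, 0.0267 after quantile normalization) and Birc5, the survivin of dividing cells, at -0.78 ± 0.18 (0.000634, 0.0531). Ldha, the lactate dehydrogenase subunit of glycolysis, was at -0.99 ± 0.19 (8.56e-05) and -0.68 after quantile normalization (0.0014). With the signal range as a covariate, Sec61a1 alone of the secretory list was called, no cell cycle gene was, and Ldha was not.

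**Figure D4:**
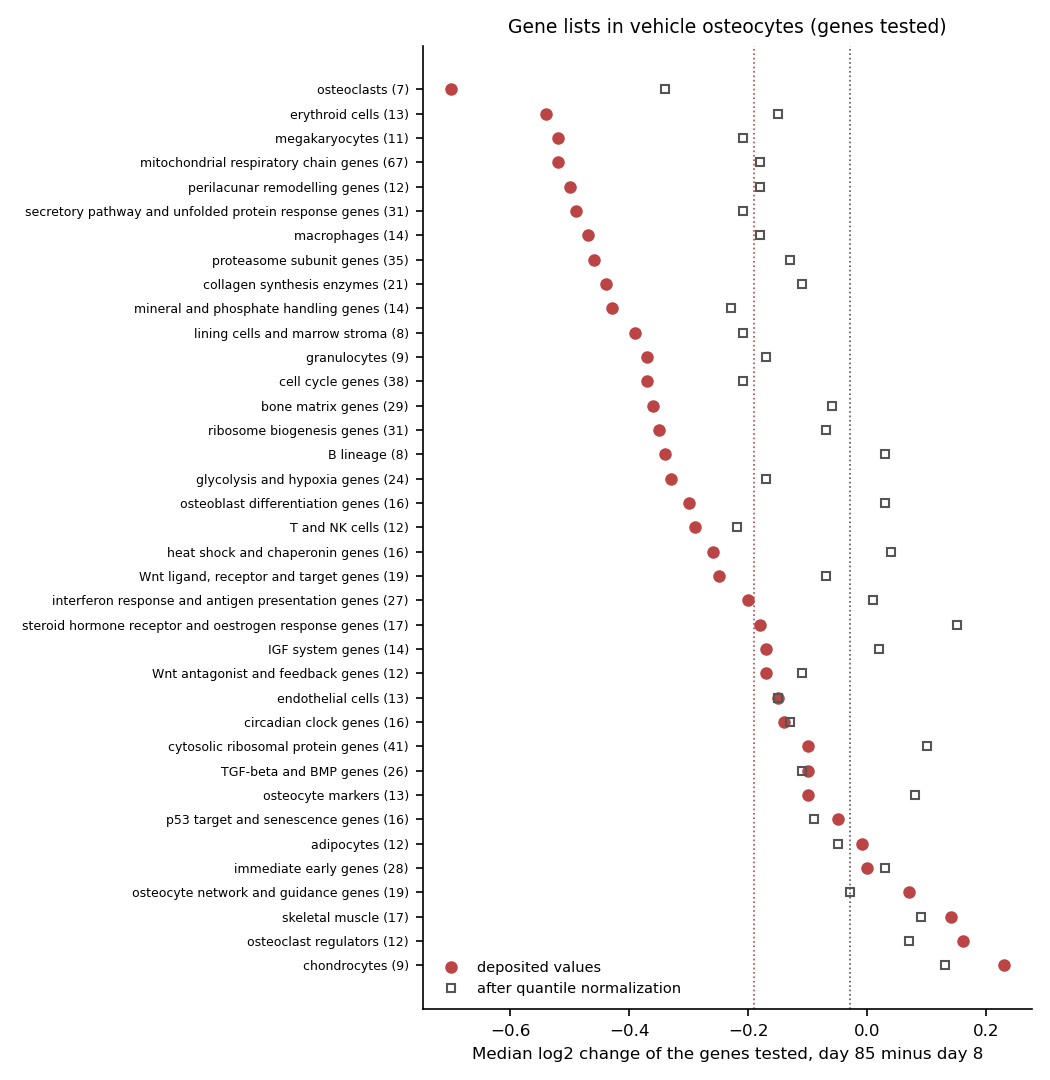
Median log2 change, day 85 minus day 8, of the genes tested in each gene list, with deposited values (red circles) and after quantile normalization (grey squares), and the number of genes tested in brackets. Dotted lines mark the median of all genes tested, -0.19 with deposited values and -0.03 after quantile normalization, and most lists lie closer to 0 after quantile normalization.

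Macroh2a1, which encodes the histone variant macroH2A1 of compact chromatin, had the largest fall on day 85. That rank is among called genes whose groups did not overlap, with the brightest probe set of each gene. It read 4.83, 4.42, 4.40, 3.95 and 3.55 on day 85 against 7.30, 7.35, 7.08, 8.16 and 7.41 on day 8, and 6.20, 7.21, 5.77, 6.51 and 7.54 on day 29. Day 85 lay wholly below both earlier days, and day 29 overlapped day 8. The change was -3.23 ± 0.40 on day 85 (limma adjusted p = 1.55e-08), -3.02 after quantile normalization and -1.63 with the signal range as a covariate (0.00584). As the mean of its 2 probe sets the change was -1.65 (8.74e-08). Fuca2, a secreted fucosidase, read 2.84 to 4.00 on day 85 against 4.79 to 5.62 on day 8 (-1.72 ± 0.24, 3.48e-07), and Degs1, the desaturase that completes ceramide, read 6.37 to 8.11 on day 85 against 8.48 to 9.17 on day 8 (-1.79 ± 0.30, 7.01e-06). Both kept their calls with that covariate (-0.87 and -1.22, limma adjusted p = 0.0393 and 0.0436). After quantile normalization they were at -1.59 and -1.45, and as the mean of its probe sets Degs1 was at -0.83 (6.57e-06).

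With the same choice of probe sets and genes the largest rise was that of Grm8, a metabotropic glutamate receptor. It read 5.45, 5.69, 5.09, 5.49 and 6.43 on day 85 against 4.02, 4.04, 3.52, 4.15 and 4.66 on day 8, with no overlap (1.55 ± 0.23, limma adjusted p = 1.28e-06, and 1.86 after quantile normalization). Rundc3a was at 1.35 ± 0.23 (8.57e-06), and Cdc34, a ubiquitin-conjugating enzyme of the cell cycle, at 1.26 ± 0.20 (3.72e-06), and they were at 1.82 and 1.71 after quantile normalization. As means of their probe sets Grm8, Rundc3a and Cdc34 were at 0.85, 0.65 and 0.52 (limma adjusted p = 1.71e-07, 0.000103 and 0.000683), below Loricrin, which has 1 probe set. With the signal range as a covariate the changes of these 3 genes were 0.59, 0.17 and 0.47, and none passed (limma adjusted p = 0.111, 0.581 and 0.178). Loricrin, a protein of cornified skin, lay 0.72 log2 units above the array median on average, at 4.10 to 4.70 on day 85 against 3.14 to 3.34 on day 8 (1.23 ± 0.17, 2.26e-07, and 1.35 after quantile normalization), and it kept its call with that covariate (0.67, 0.0244).

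Signalling genes changed in small numbers. Of 28 immediate early genes, 5 were higher and 2 lower on day 85 (median 0.00, against 14.3% higher and 16.7% lower at a like level). Socs3, the feedback inhibitor of cytokine receptors, read 4.13, 4.11, 3.69, 4.10 and 4.25 on day 85 against 3.09, 3.36, 3.33, 3.17 and 3.74 on day 8, so that 1 day 85 array lay below the highest day 8 array (0.72 ± 0.12, limma adjusted p = 1.04e-05, and 0.51 with the signal range as a covariate, 0.0409). Fosl1, an AP-1 subunit, was at 0.53 ± 0.14 and Klf6, a zinc finger factor induced by injury, at -1.05 ± 0.27 (0.002 and 0.0017). Fosl1 averaged 0.23 log2 units below the array median (-0.23). Klf6 ranged from 4.11 to 5.96 on day 85 against 5.79 to 6.61 on day 8, and without day 85 replicates 2 and 5 it was at -0.63 and did not pass (limma adjusted p = 0.11), and as the mean of its probe sets it was at -0.42 (0.00416). Of 16 clock genes, Per1 and Bhlhe40, both repressors in the circadian loop, were higher and none was lower, where 9.02% of the genes of a like level and 9.55% of all genes were higher. Per1 read 4.36, 4.60, 5.49, 6.36 and 6.61 on day 85 against 4.09, 4.32, 4.27, 4.13 and 5.16 on day 8. Of the day 85 arrays 2 lay below the highest day 8 array, and the other 3 lay above all of them (1.09 ± 0.26, 0.000754, and 1.39 after quantile normalization). Bhlhe40 was at 0.58 ± 0.16 (0.00305), and without day 85 replicates 2 and 5 at 0.39 (0.089). Its average level was 0.23 log2 units below the array median (-0.23). The hour of death is not given in the labels used here.

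Of 12 osteoclast regulators, 3 were higher on day 85 and none was lower, where 20.1% of the genes of a like level were higher. They were Csf1, the growth factor that Csf1r binds, Il11, a cytokine of bone cells, and Tnf. Csf1 read 5.58 to 5.97 on day 85 against 5.07 to 5.38 on day 8 (0.46 ± 0.13, limma adjusted p = 0.00426, and 0.87 after quantile normalization), but as the mean of its 4 probe sets it was at 0.18 (0.214). Il11 was at 0.46 ± 0.13 (0.0035) at an average level 0.09 log2 units below the array median (-0.09). Tnf was at 0.41 ± 0.14 (0.014) and lost its call without day 8 replicate 4 (0.33, 0.076), without day 85 replicate 1 (0.35, 0.0506) and without day 85 replicates 2 and 5 together (0.36, 0.0875). On average Tnf lay 0.36 log2 units above the array median. In the IGF system, Igf2 and its binding protein Igfbp6 were higher and Igf2r, which takes IGF2 to the lysosome, and Htra1 were lower, of 14 genes tested. At a like level 5.82% of genes were higher and 30.1% lower. Igf2 read 4.50, 4.55, 4.71, 4.68 and 4.57 on day 85 against 4.13, 4.15, 3.83, 4.09 and 4.16 on day 8 (0.53 ± 0.13, 0.00108). Igfbp6 was at 0.73 ± 0.19 and Igf2r at -0.85 ± 0.17 (0.00235 and 0.000171), and these 3 passed after quantile normalization too, while Htra1 did not (-0.30, 0.382). As the mean of its probe sets Igfbp6 was at 0.44 (0.0053). Greb1, an oestrogen-induced growth regulator, was at 0.62 ± 0.14 (0.000396), with 3.20 to 3.91 on day 85 against 2.50 to 3.04 on day 8, and its list of steroid receptor and response genes had 3 higher and 1 lower of 17, against 5.82% higher and 30.1% lower at a like level. That bin was taken at the list's median level of 4.66 and does not match Greb1, which averaged 0.09 log2 units above the array median. With the signal range as a covariate, Socs3 alone of the genes named here with an immediate early, clock, osteoclast regulator, IGF or oestrogen role kept its call.

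Other genes stood out on day 29. Enpp2, the autotaxin that makes lysophosphatidic acid, read 4.42, 4.71, 4.74, 4.53 and 4.70 on day 29 against 6.56, 6.64, 6.56, 5.79 and 5.35 on day 8 (-1.56 ± 0.29, limma adjusted p = 0.00353, and -1.38 after quantile normalization, 0.0144). Prkcsh, the glucosidase II beta subunit of the endoplasmic reticulum, was at -1.29 ± 0.21 (0.000305), the only gene called on day 29 with the signal range as a covariate (-0.94, 0.0281). Glt8d1, a glycosyltransferase, was at -1.14 ± 0.22 and Pja2, a ubiquitin ligase, at -1.13 ± 0.24 (limma adjusted p = 0.00353 and 0.00736). Without day 29 replicate 3, Pja2 was at -0.89 and did not pass (0.12), and as the mean of its probe sets it was at -0.64 (0.0259). Arpc1b, a subunit of the actin-branching Arp2/3 complex, had the largest rise among called genes whose groups did not overlap. It read 8.74, 9.16, 9.17, 8.95 and 9.50 on day 29 against 8.42, 8.28, 8.09, 8.69 and 8.18 on day 8 (0.77 ± 0.22, 0.0453), with no overlap. That call ended without any 1 of the 5 day 8 arrays or of day 29 replicates 2, 3, 4 and 5 (limma adjusted p 0.051 to 0.142), and as the mean of its probe sets (0.0509). On day 85 Arpc1b read 8.06, 8.12, 7.90, 7.50 and 7.34, below every day 29 array (-1.32 ± 0.22, 3.68e-05).

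Between days 85 and 29, Zfp36l1, a protein that speeds the decay of AU-rich messenger RNAs, read 10.51, 10.81, 11.01, 10.98 and 10.36 on day 85 against 9.72, 9.92, 9.32, 9.67 and 9.76 on day 29 (1.05 ± 0.17, limma adjusted p = 2.51e-05). Cxcl14, a chemokine, was at 1.12 ± 0.26 (0.00326). Ctnnbl1, a splicing-associated protein, read 9.01, 6.80, 9.0, 8.48 and 6.02 on day 85 against 9.86, 9.32, 9.13, 9.57 and 9.51 on day 29 (-1.61 ± 0.25, 1.74e-05). The fall of Ctnnbl1 was mostly that of day 85 replicates 2 and 5, and without both it was at -0.64, still past the threshold (limma adjusted p = 0.0475).

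The antibody arms gave a second look at the same days in other rats. Averaged over the 3 and 50 mg/kg arms, 1320 genes (11.1%) were higher and 2741 (23.1%) lower on day 85 than on day 8, at group sizes of 3 to 5 arrays. Of the genes higher in vehicle osteocytes, 522 were also higher in antibody osteocytes, which is 46.1% of the vehicle list and 39.5% of the antibody list. Of the lower genes 1581 were shared (51% and 57.7%), and 2 higher and 22 lower vehicle genes went the other way in antibody rats. The signal range was lower on day 85 there too, at 2.788 ± 0.113 against 3.181 ± 0.113 on day 8 at 3 mg/kg (SD, n = 5 each) and 2.762 ± 0.112 (n = 3) against 3.067 ± 0.155 (n = 5) at 50 mg/kg. Gpnmb was at -1.30 and Macroh2a1 at -2.09 in antibody osteocytes (limma adjusted p = 1.68e-06 and 2.12e-07). Acp5 was at -0.27 at 3 mg/kg (0.345) and at -1.82 at 50 mg/kg (3.69e-08), and the change in antibody rats as a whole did not differ from that in vehicle rats beyond error (0.24, limma adjusted p = 0.716).

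Tests of the change itself between arms called no gene on day 29 (0%, 726 genes at an unadjusted p under 0.05, none after quantile normalization) and 155 higher (1.31%) and 34 lower genes (0.287%) on day 85. After quantile normalization the split on day 85 was 119 higher and 82 lower. Tnnc1, the slow troponin C, averaged 4.06 on day 85 against 5.06 on day 8 in vehicle rats, 5.14 against 4.77 at 3 mg/kg and 7.30 against 4.86 at 50 mg/kg (antibody minus vehicle change 2.41, limma adjusted p = 0.00256). The 50 mg/kg mean of day 85 is that of 3 arrays, and leaving out single arrays was not tried for the differences between arms. Degs1 was at 0.02 in antibody rats (limma adjusted p = 0.945) and fell by 1.79 in vehicle rats (difference 1.81, 0.00327), with means of 8.29 on day 85 against 7.99 on day 8 at 3 mg/kg and 8.0 against 8.25 at 50 mg/kg. Grm8 rose less in antibody rats (difference -1.04, limma adjusted p = 0.0474), which did not pass with the signal range as a covariate (-0.72, 0.0618). Lox, the enzyme that cross-links collagen, fell by 1.84 in antibody osteocytes (limma adjusted p = 1.38e-10) against a change of -0.63 in vehicle osteocytes (0.0579), a difference of -1.21 (0.043) that did not pass after quantile normalization (-1.15, 0.0535).

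In the fit of all arrays and cell types, with 12500 genes tested, 1218 genes (9.74%) were higher and 3166 (25.3%) lower in vehicle osteocytes on day 85 than on day 8. Vehicle osteoblasts had 2110 (16.9%) and 2857 (22.9%), and vehicle lining cells 142 (1.14%) and 357 (2.86%). Osteocytes shared 743 higher and 1464 lower genes with osteoblasts (61% and 46.2% of the osteocyte lists, 35.2% and 51.2% of the osteoblast lists) and 45 and 236 with lining cells (3.69% and 7.45%, 31.7% and 66.1%). The captures of the 3 types may come from the same rats, which the labels do not name. Acp5 was lower in all 3 captures, at -1.28 ± 0.32 in osteocytes, -1.65 ± 0.32 in osteoblasts and -1.38 ± 0.32 in lining cells (limma adjusted p = 0.000848, 1.79e-05 and 0.00419), and the tests of a difference between captures did not pass (limma adjusted p = 0.729 and 0.944). Gpnmb was likewise at -1.98, -1.86 and -1.31 (2.57e-08, 1.05e-07 and 0.00189), and Macroh2a1 at -3.23, -2.21 and -1.41 (3.67e-10, 6.36e-06 and 0.0268). The differences for Macroh2a1 did not pass either (-1.01 and -1.82, limma adjusted p = 0.342 and 0.0647).

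Tests of the change between captures called no gene on day 29 for osteocytes minus osteoblasts (0%, 1513 at an unadjusted p under 0.05) or minus lining cells (0%, 1048), also after quantile normalization. On day 85 the change was higher in osteocytes than in osteoblasts for 111 genes (0.888%) and lower for 318 (2.54%), and against lining cells for 35 (0.28%) and 180 (1.44%). After quantile normalization these counts were 188 and 326 against osteoblasts and 104 and 137 against lining cells. Slit2, a guidance cue, was at -0.63 ± 0.38 in osteocytes against -3.02 ± 0.38 in osteoblasts, a difference of 2.39 ± 0.53 (limma adjusted p = 0.00278). Mmp13, the collagenase of bone cells, was at -0.29 ± 0.27 against -1.65 ± 0.27 (difference 1.35, 0.0276), Gja1, the gap junction protein connexin 43, at -0.24 ± 0.19 against -1.23 ± 0.19 (0.99, 0.0205), and Cpe, a carboxypeptidase of secretory granules, at -0.41 ± 0.33 against -2.31 ± 0.33 (1.90, 0.00938). These 4 genes fell in osteoblasts and did not pass in osteocytes. Dmp1 and Mepe had differences of 1.52 and 1.12 from osteoblasts, and neither passed (limma adjusted p = 0.108 and 0.415). Ctnnbl1 went the other way, at -1.46 ± 0.20 in osteocytes against 0.69 ± 0.20 in osteoblasts and 0.09 ± 0.20 in lining cells (differences -2.15 and -1.55, 5.78e-09 and 0.000331), and its lowest osteocyte values were those of day 85 replicates 2 and 5 given above. Grm8 and Xiap, an inhibitor of caspases, were at 1.55 and 1.04 in osteocytes against 0.25 and -0.32 in lining cells (differences 1.30 and 1.37, limma adjusted p = 0.0203 and 0.018). The difference for Grm8 did not pass with the signal range as a covariate (0.93, 0.0862).

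**Figure D5:**
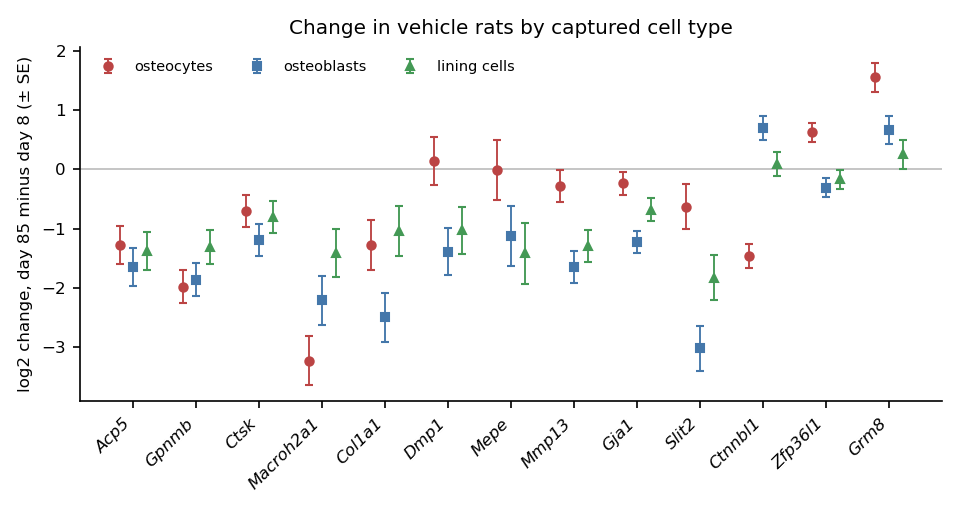
log2 change, day 85 minus day 8, with its SE, of 13 genes in vehicle osteocytes (red), osteoblasts (blue) and lining cells (green), from 1 fit of all arrays with 5 arrays a group. Acp5, Gpnmb and Ctsk lie below 0 in all 3, Slit2, Mmp13 and Gja1 lie lower in osteoblasts than in osteocytes, and Ctnnbl1 lies below 0 in osteocytes only among these 3 captures.

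Dosing ended by day 183. Vehicle osteocytes of the later days, which enter no comparison here, show where the day 85 levels sat. The signal range averaged 2.635 ± 0.131 on day 183, 3.355 ± 0.064 on day 197, 3.079 ± 0.186 on day 237, 3.197 ± 0.145 on day 267 and 3.152 ± 0.137 on day 309 (SD, n = 5 each). Macroh2a1 averaged 7.46, 6.65 and 4.23 on days 8, 29 and 85, then 5.68 on day 183 and 8.21, 7.69, 7.91 and 7.88 on days 197, 237, 267 and 309, so its low values stood on the 2 days with the narrowest signal range. Grm8 averaged 4.08, 4.60 and 5.63 on days 8, 29 and 85 and 3.64 to 4.30 on the 5 later days. Acp5 averaged 11.93 on day 8 and 10.00 to 11.35 on the later days, and Gpnmb 7.50 on day 8 and 5.55 to 6.68, both below day 8 throughout. Col1a1 averaged 11.94 on day 8, 10.65 on day 85 and 10.59 to 11.27 on the later days. Mepe averaged 11.64 on days 8 and 85 and 9.21 to 10.82 later, and Dmp1 11.22, 11.35 and 9.88 to 10.72. These means are given as a description, without a test.

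Markers of other cells that the captures could hold were checked in the same way. On day 29 no erythroid, granulocyte, B lineage, T and NK, endothelial, adipocyte or megakaryocyte marker was called with limma. On day 85, 4 of 13 erythroid markers were lower, against 26.1% of all genes and 45.5% at a like level (median -0.54, mean list level 6.17 to 7.51 on day 85 against 6.77 to 7.74 on day 8). Of 12 T and NK cell markers 3 were lower and 1 was higher (median -0.29), and of 13 endothelial markers 3 were lower and 1 was higher (median -0.15), where 25.3% were lower at a like level. Of 12 adipocyte markers 3 were lower, the adipokine Cfd, the lipid enzyme Dgat2 and the nuclear receptor Pparg, also after quantile normalization. Over all genes 26.1% were lower, and 10.2% in the bin of the list's median level. Cfd and Dgat2 lay 4.77 and 2.92 log2 units above the array median, against a list median of 0.03, so that bin does not match them. Of the granulocyte (9, median -0.37), B lineage (8, median -0.34) and megakaryocyte markers (11, median -0.52), 1 each was lower. At a like level 45.5%, 43.2% and 36.2% of genes were lower. Of 9 chondrocyte markers Col9a2 and Matn1 were higher (median 0.23), where 16.1% were higher at a like level and 9.55% over all genes. Of 17 skeletal muscle markers 2 were higher (list median 0.14), where 20.1% were higher at a like level. A further 1, the myosin Myh1, was lower, though not after quantile normalization (-0.22, limma adjusted p = 0.437). The part of these markers in the changes above was not tested.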

How the data were processed

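Gene expression was measured on Affymetrix rat whole-genome arrays. The deposited values are linear intensities for 31042 probe sets, from 2.94 to 28282. Per the submitters' processing notes, Affymetrix Expression Console, RMA, R 3.0.1 and affy 1.38.1 were used, with no roles given. Detection calls were not used here, so signal over background is not known, and precision is limited by how many arrays a group holds.

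The intensities were taken to log2. Of the probe sets, 20826 had 1 gene in the platform annotation, 436 had several and 9780 were unlisted, which gave 14217 genes. For the 4525 genes with several probe sets, the set with the highest mean was used. Another set of the same gene moved the other way on day 85 for Csf1, Klf6, Sec61a1, Degs1, Slit2, Gja1, Pth1r, Irx5, Cdc34 and Serpinh1. Where the mean of the probe sets moved a named change of vehicle osteocytes by over 1.5 times, it is given beside it. For the differences between arms and between cell types the mean of the probe sets is not given. Genes above the array median on at least 5 arrays were tested. limma 3.58.1 (R 4.3.3) fitted all 20 osteocyte groups together (97 arrays, 11859 genes) and, for cell types, all 60 groups (294 arrays, 12500 genes), with Benjamini-Hochberg adjustment and a threshold of 0.05. The signal range was compared by exact permutation. The procedure was tested on simulated data. Promoters came from RefSeq tables of GRCr8.

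The members and gene lists were chosen with earlier results of these data known. Named genes are a part of those a fixed rule gave: a set of bone genes, the largest called changes whose groups did not overlap, the called members of each list with the smallest p, and the largest called differences between arms or cell types. For genes named by the largest changes, lack of overlap was thus a condition of being named and not a result. Alternatives were quantile normalization, signal range as a covariate, array weights, no filter, probe set means, fits of fewer groups, leaving out arrays of outlying range and leaving out each array. For differences between arms and between cell types only the first 2 were used.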

Additional observations from a re-analysis of the deposited data

Results flagged for a closer look

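Among 195 day groups (64 named genes and the signal range, each on 3 days), 9 held an array far from the other 4 by Dixon's test, which chance gives in about 1 in 20 groups. On day 29, replicate 4 read 5.45 for Col11a1 against 6.27 to 6.50 on the other arrays, and 8.98 for Sparc against 9.79 to 10.03. Replicate 3 of day 29, the array of lowest signal range, read 6.16 for Kdelr2 against 7.40 to 7.49, and 5.85 for Csf1 against 5.43 to 5.52. On day 85, replicate 3 read 4.04 for Fkbp14 against 2.99 to 3.22 and 3.69 for Socs3 against 4.10 to 4.25, and replicate 2 read 6.86 for Ndufs7 against 5.26 to 5.59. On day 8, replicate 5 read 5.16 for Per1 against 4.09 to 4.32, and replicate 3 read 3.83 for Igf2 against 4.09 to 4.16.

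The change from day 8 to day 85 differed between osteocytes and osteoblasts of vehicle rats for 429 genes, among them Slit2 (2.39), Cpe (1.90), Mmp13 (1.35), Gja1 (0.99) and Ctnnbl1 (-2.15). It differed between osteocytes and lining cells for 215 genes, among them Xiap (1.37), Grm8 (1.30) and Ctnnbl1 (-1.55). Between antibody and vehicle osteocytes it differed for 189 genes, among them Tnnc1 (2.41), Degs1 (1.81), Lox (-1.21) and Grm8 (-1.04). All of these are differences of log2 changes tested with limma.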

How the results depend on the processing

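The number of genes called on day 29 against day 8 was 253, and it was 47 after quantile normalization, 139 with the mean of the probe sets of a gene, 1146 with limma array weights, 2 and 52 with only the vehicle osteocyte arrays of these 3 days or of all days, and 1 with the signal range as a covariate. Leaving out each array gave 14 to 462 genes. On day 85 against day 8, 4232 genes were called, against 2378 after quantile normalization, 2700 with only these 15 arrays and 173 with the covariate, and 3403 to 4576 on leaving out each array. Between days 85 and 29, 1067 genes were called, against 205 with only these 15 arrays and 445 with the covariate, and 631 to 1437 on leaving out each array, the lowest without day 29 replicate 2. Leaving out day 85 replicates 2 and 5 together, chosen after seeing the data, gave 2556 genes on day 85 against day 8 and 395 between days 85 and 29. With the covariate, the change differed between osteocytes and osteoblasts for 767 genes and between osteocytes and lining cells for 89. The cause of these moves was not tested. The smaller fits hold fewer arrays and take the spread from those arrays alone.

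With the 95th percentile, the signal range difference between days 85 and 29 was -0.253 and no longer passed (exact permutation, adjusted p = 0.0556). On leaving out each array the differences ran from -0.318 to -0.194 for day 29 against day 8, from -0.569 to -0.494 for day 85 against day 8 and from -0.327 to -0.215 between days 85 and 29.

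Of 1721 values of 83 named gene results under alternatives, 1580 kept direction and call, 128 kept the direction and lost the call, 55 of them with the covariate, and 13 turned sign. All 13 were of Mepe, which was called under none. On leaving out each array Mepe ran from -0.26 to 0.22 on day 29 and from -0.19 to 0.15 on day 85. On day 29 Mepe was at 0.12 after quantile normalization, 0.05 with the covariate, and 0.01 and 0.22 without day 8 replicate 2 or day 29 replicate 1. On day 85 it was at 0.21 after quantile normalization, 0.08 with array weights, 0.26 with the covariate, 0.21 without day 85 replicates 2 and 5, and 0.00, 0.03, 0.07, 0.09 and 0.15 on leaving out single arrays. No paired analysis was possible because the replicate numbers were given in accession order and the labels name no animal.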
